A study of Mus musculus with 6 samples.

Results

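The genes described are 42 genes of the cell division cycle, out of 32285 genes measured, in single cells of the mouse tibialis anterior, a muscle of the shin. They were chosen by symbol and fall into 8 groups by role: 6 mitotic genes that also serve to count cycling cells, 11 mitotic kinases and spindle genes, 3 A and B cyclins, 2 E cyclins, 3 D cyclins, 7 genes of origin licensing and the replicative helicase, 7 genes of DNA synthesis and nucleotide supply, and 3 inhibitors of the CIP/KIP family. All 42 were found in the matrices. The animals were wild type. Muscle was taken uninjured (day 0) and on days 1 and 3 after it had been injured by cardiotoxin, a snake venom toxin that kills muscle fibres and sets off their regeneration, at ZT16 and ZT4 (zeitgeber time, hours since lights on). Living cells with 1 nucleus from the muscles of both hindlimbs were sorted by exclusion of propidium iodide, a dye that enters dead cells, and profiled with a droplet kit that reads the 3′ end of transcripts. Muscle fibres have many nuclei and are not among such cells. Each of the 6 groups is 1 library, and how many animals stand behind a library was not given in the labels used here. No difference below therefore has a replicate check, no p-value is given, and every interval covers counting error only, at 95%.

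Cells that divide pass from G1 through DNA replication (S phase) to mitosis. D cyclins with Cdk4 or Cdk6 and E cyclins with Cdk2 drive a cell out of G1, Cdc6 and the Mcm proteins load and form the helicase that opens DNA at replication origins, and A and B cyclins with Cdk1 take the cell through mitosis. The CIP/KIP inhibitors Cdkn1a (p21), Cdkn1b (p27) and Cdkn1c (p57) bind cyclin and kinase complexes and hold cells in G1 or in lasting exit. In uninjured muscle nearly all resident cells, the Pax7-expressing muscle stem cells (satellite cells) among them, are known to be quiescent. After injury satellite cells re-enter the cycle and later exit it to fuse, and fibro-adipogenic progenitors, the mesenchymal cells of muscle, also divide.

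The promoters of these genes are shown first, because S phase and mitotic genes are known to be switched on by different elements, the E2F site and the CHR (cell cycle genes homology region), and because the groups moved apart in some cells below. RefSeq start sites on GRCm38.p6 with a promoter sequence were at hand for 33 of the 42 genes, and the 160 bases before each start were searched on both strands. The CHR letters TTTGAA were in the window of 7 of the 16 mitotic and A or B cyclin genes with a sequence (43.8%), in 1 of 14 E cyclin, licensing and synthesis genes (7.14%) and in 3040 of all 27025 genes with a sequence (11.2%). An E2F-type run, taken as any of TTTCCCGC, TTTGGCGC, TTTCGCGC and TTTGCCGC, was in 1 of the 16 (6.25%), in 4 of the 14 (28.6%) and in 403 of all genes (1.49%). CCAAT was in 14 of the 16 (87.5%), 8 of the 14 (57.1%) and 7789 of all genes (28.8%). Of the 6 D cyclins and CIP/KIP inhibitors 3 had a sequence, and neither the CHR letters nor an E2F-type run was in their windows. A match describes the letters only and shows no binding. The 5 windows below were chosen after their motifs were seen, 3 of mitotic genes with the CHR letters and 2 of helicase genes with E2F-type runs. Capitals mark these letters, and TTCAAA is TTTGAA on the opposite strand. In the order printed they lie at chr7:135716380-135716539 on the minus strand, chr11:99024190-99024349 on the minus strand, chr19:37376222-37376381 on the plus strand, chr8:75109349-75109508 on the plus strand and chr1:128359706-128359865 on the minus strand, each just upstream of the first exon and outside the gene as annotated in GENCODE vM21.
Mki67: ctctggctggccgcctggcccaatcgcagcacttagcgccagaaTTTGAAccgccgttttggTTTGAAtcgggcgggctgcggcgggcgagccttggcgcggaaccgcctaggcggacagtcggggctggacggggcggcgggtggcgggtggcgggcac
Top2a: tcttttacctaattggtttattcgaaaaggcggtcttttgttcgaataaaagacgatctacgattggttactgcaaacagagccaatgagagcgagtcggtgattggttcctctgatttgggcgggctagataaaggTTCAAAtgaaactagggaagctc
Kif11: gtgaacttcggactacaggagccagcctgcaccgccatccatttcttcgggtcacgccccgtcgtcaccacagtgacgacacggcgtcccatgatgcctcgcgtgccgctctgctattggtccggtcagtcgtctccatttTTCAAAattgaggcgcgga
Mcm5: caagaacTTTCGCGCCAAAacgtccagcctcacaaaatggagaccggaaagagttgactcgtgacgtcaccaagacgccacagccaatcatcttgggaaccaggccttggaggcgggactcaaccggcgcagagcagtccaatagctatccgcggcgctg
Mcm6: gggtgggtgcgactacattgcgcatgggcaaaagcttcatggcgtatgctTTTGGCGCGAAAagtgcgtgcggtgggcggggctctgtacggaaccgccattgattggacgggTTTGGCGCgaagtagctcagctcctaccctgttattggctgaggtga

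The 6 libraries held 8626 to 14079 barcodes and 72747703 to 132221721 UMIs (unique molecular identifiers, each counting 1 captured transcript). After filters and doublet removal 58469 of 68724 barcodes were kept, with a median depth of 3172 to 5006 UMIs per cell on days 0 and 1 and of 11068 and 11128 on day 3. Any 2 libraries shared 21 to 65 barcodes. Cells were clustered without the 42 members, 111 other cell cycle genes and the histone genes, so that no cluster was drawn by the genes described here. Of 40 clusters 4 stayed unnamed, and the others took 1 of 14 class names from marker genes, written with the ending -like because the names are rebuilt and not the authors' own. This gave 32701 immune, 7285 stromal, 8800 vessel and 3211 myogenic cells, while 3893 cells were of other classes and 2579 were in unnamed clusters. Though labelled as skeletal muscle cells, the libraries thus held mostly cells of other types. Levels are CPM, the UMIs of a gene per 1e6 summed UMIs of a class in a library, and they compare a gene between groups and not genes with each other. A member counts as higher or lower when it differed at least 2-fold and had at least 30 UMIs in both groups together. A gene can reach that minimum through its high group alone, so counts of members are descriptions. Beside the counts of all members at the main settings stands the share of all measured genes past the same limits. That share was not computed after thinning or under other settings, so counts given there have no background. The median log2 difference over those genes ran from -0.44 to 0.11 in the comparisons counted here, and no value was corrected for it.

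The share of cycling cells, those with at least 3 summed UMIs of Mki67, Top2a, Ube2c, Birc5, Cdk1 and Prc1, differed widely between classes. Myogenic-like cells (Pax7, Myf5, Myod1) led on day 3, with 412 of 504 cells (81.7%, interval 78.1 to 85) at ZT16 and 607 of 716 (84.8%, 81.9 to 87.3) at ZT4, and these cells were also the deepest, with medians of 42196.5 and 44112.5 UMIs. Thinning to 3000 UMIs leaves out cells with fewer, 18 and 19 of these but 1661 of 2749 endothelial-like cells on day 0 at ZT4. After it the shares of day 3 myogenic-like cells were 45.1% and 44.8%, and all thinned shares describe the deeper cells only. Fibro-adipogenic-like cells (Pdgfra, Dcn, Col1a1) stood at 0.577%, 32.2% and 23.8% on days 0, 1 and 3 at ZT16, and at 0.0624%, 24.4% and 24.4% at ZT4. The thinned shares were 0.421%, 13.4% and 9.59% at ZT16 and 0% (0 of 2965, at most 0.101%), 12.7% and 8.70% at ZT4. Dendritic-like cells held cycling cells in every library, with 16.9%, 6.78% and 16.3% at ZT16 and 14.8%, 3.99% and 18.1% at ZT4, and after thinning 10.9%, 2.74% and 10.1% at ZT16 and 7.84%, 3.1% and 11.9% at ZT4. On day 3 fibro-adipogenic-like cells thus stood above dendritic-like cells before thinning and below them after it. Neutrophil-like cells, which are post-mitotic and show what stray transcripts give in cells as shallow as these, had 1 of 4202 cells past the limit on day 1 at ZT16 (0.0238%) and 3 of 4822 at ZT4 (0.0622%), at median depths of 2474 and 2349 UMIs, and 0 of 170 (at most 1.76%) and 0 of 282 (at most 1.06%) on day 3. They give no such measure for deeper classes. Barcodes of the mature muscle-like class of day 0 had 0 of 2070 (at most 0.145%) and 0 of 1446 (at most 0.207%). That class is named from fibre transcripts, though fibres are not among cells with 1 nucleus, and whether its barcodes hold whole cells was not tested.

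Which classes the cycling cells came from also differed by day. On day 0 there were 122 at ZT16, 61 of them myogenic-like, and 33 at ZT4, 2 of them myogenic-like. On day 1 there were 134 at ZT16, of which stromal cells made up 41.0%, immune cells 32.8% and myogenic-like cells 22.4%, and 63 at ZT4, with 34.9%, 49.2% and 15.9%. On day 3 there were 1033 at ZT16 and 1529 at ZT4, of which immune cells made up 48.2% and 51.1%, myogenic-like cells 39.9% and 39.7%, and stromal cells 10.4% and 8.44%. The day 1 myogenic-like class held 35 cells at ZT16, 30 of them cycling, and 18 at ZT4, 10 of them cycling, and is too small to compare. These shares follow the numbers of cells captured of each class as well as how many of them were cycling.

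**Figure D1:**
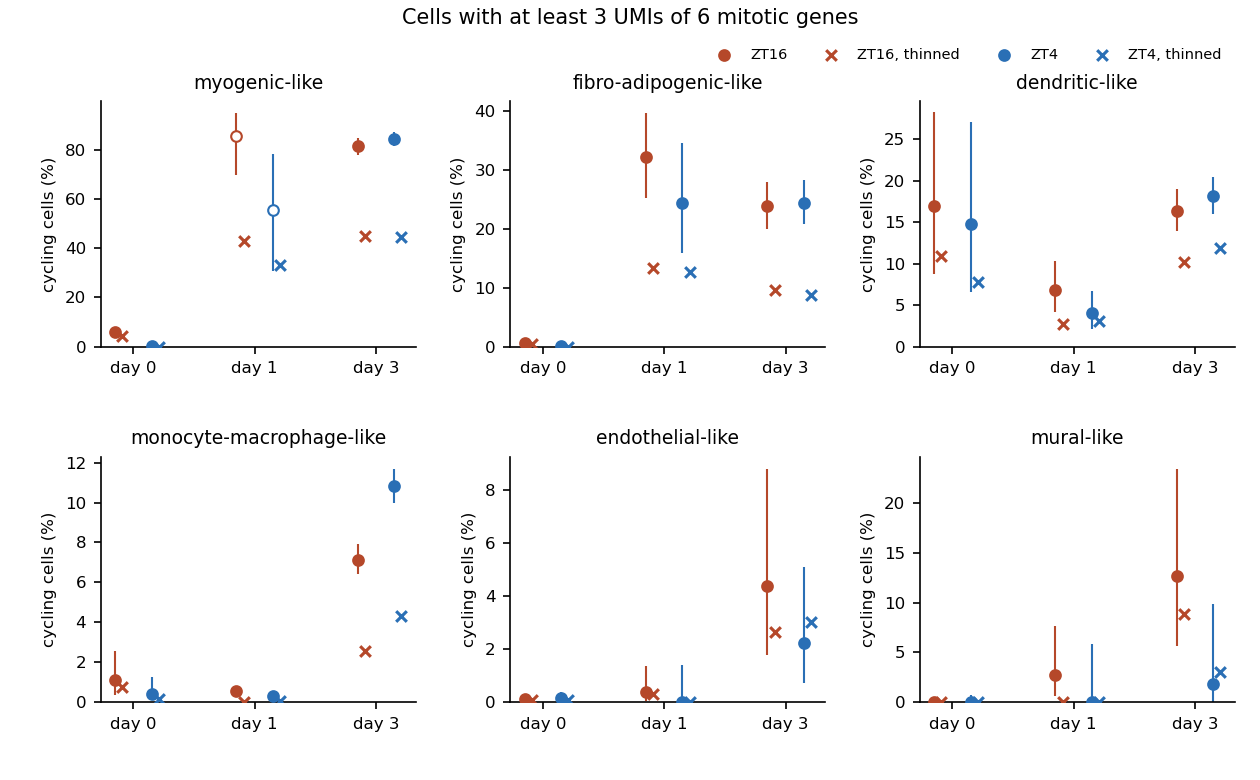
Percent of cycling cells (at least 3 UMIs of the 6 mitotic genes) in 6 classes, by day, with ZT16 in red left of ZT4 in blue; bars are exact 95% binomial intervals, open circles are classes under 50 cells, and crosses are the shares with cells thinned to 3000 UMIs and shallower cells left out. Myogenic-like cells of day 3 stand at 81.7% and 84.8%, fibro-adipogenic-like cells reach 32.2% and 24.4% already on day 1, and each panel has its own vertical scale.

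In myogenic-like cells the division genes were far higher on day 3 than on day 0, and the size of that difference depended on the collection time because the day 0 libraries differed. At ZT4, 38 of the 42 members that passed the UMI minimum were higher on day 3, against 20.2% of all genes, and 3 were lower, against 25.3%. At ZT16, 31 of 42 were higher (19.5% of all genes) and 2 lower (21.1%). The median member difference on the log2 scale was 5.49 at ZT4 and 1.59 at ZT16. Every member of the 6 counted genes, the kinases and spindle genes, the A and B cyclins, the E cyclins, the licensing and the synthesis genes was higher at ZT4, and at ZT16 these were 4 of 6, 8 of 11, 3 of 3, 2 of 2, 6 of 7 and 6 of 7.

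Among the 6 counted genes, Ube2c, the ubiquitin-conjugating enzyme of the anaphase-promoting complex, had 323 CPM on day 3 and 52.6 CPM on day 0 at ZT16, and 292 CPM on day 3 and no UMI on day 0 at ZT4, which is at least 512-fold higher against a floor of 3 UMIs. Birc5 (survivin, a subunit of the chromosomal passenger complex) had 253 against 57.2 CPM at ZT16 and 284 against 0.76 CPM at ZT4. Both were the highest of the 6 relative to day 0. Mki67, which coats mitotic chromosomes, had 126 against 60.4 CPM at ZT16 and 98.9 against 1.33 CPM at ZT4. Top2a, the topoisomerase that untangles sister chromatids, had 130 against 100.2 CPM at ZT16 and 118 against 1.52 CPM at ZT4. Top2a thus differed by 0.37 (0.25 to 0.49) on the log2 scale at ZT16 and by 6.19 (5.30 to 7.49) at ZT4. Cdk1, the mitotic kinase, had 127 against 63.4 CPM at ZT16 and 139 against 3.04 CPM at ZT4. Prc1, which bundles microtubules of the spindle midzone, had 72.2 against 60.04 CPM at ZT16 and 77.7 against 0.38 CPM at ZT4, so that Prc1 and Top2a stayed under 2-fold at ZT16.

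In the other roles the member with the largest and the one with the smallest difference at ZT4 are given. Plk1 (polo-like kinase) had 44.0 against 4.59 CPM at ZT16 and 43.1 CPM against no UMI at ZT4, at least 75.6-fold higher. Stmn1, a microtubule destabiliser, had 461 against 328 CPM at ZT16 and 518 against 15 CPM at ZT4. Ccna2 (cyclin A2) had 85.2 against 28.2 CPM and 91.8 against 0.19 CPM (1 UMI on day 0 at ZT4), and Ccnb1 (cyclin B1) had 78.9 against 11.2 CPM and 89.8 against 1.71 CPM. Mitotic genes and their cyclins thus differed by 5 or more on the log2 scale at ZT4. Ccne2 had 39.6 against 15.3 CPM and 33.2 against 0.57 CPM, and Ccne1 had 59.96 against 7.90 CPM and 66.5 against 1.90 CPM. Cdc6, which loads the helicase, had 16.8 against 6.12 CPM and 14.3 against 0.38 CPM. Mcm7, a helicase subunit, had 102 against 64.6 CPM at ZT16 and 101 against 28.9 CPM at ZT4, a difference of 1.81 (1.58 to 2.06) on the log2 scale at ZT4. Pclaf, the PCNA-associated factor, had 302 against 85.5 CPM and 338 against 1.33 CPM, while Pcna, the sliding clamp of the DNA polymerases, had 143 against 114 CPM and 153 against 48.3 CPM. Mcm7 and Pcna, already present in uninjured cells, moved least at ZT4 among the genes that were higher there. Within day 3 the collection times were close: 1 of 42 members was higher at ZT16 (2.06% of all genes), 0 were lower (0.411%), and the median was -0.00.

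The D cyclins and the CIP/KIP inhibitors of myogenic-like cells followed a different course. Ccnd1 had 202 and 195 CPM on day 3 (ZT16 and ZT4), close to 229 and 242 CPM on day 0, and Ccnd3 had 121 and 121 CPM on day 3 against 251 and 331 CPM on day 0. Ccnd2 stayed between 0.86 and 3.23 CPM in all 4 libraries. Cdkn1a had 555 and 553 CPM on day 3, against 89.9 and 51.7 CPM on day 0, and Cdkn1c had 886 and 786 CPM against 50.9 and 43.1 CPM. Their log2 differences were 2.62 (2.52 to 2.74) and 3.42 (3.25 to 3.6) for Cdkn1a and 4.12 (3.98 to 4.27) and 4.18 (4 to 4.38) for Cdkn1c. Cdkn1b went the other way, with 26.3 and 25.9 CPM on day 3 against 130 and 109 CPM on day 0. The day 3 cells not counted as cycling had 2576 CPM of Cdkn1c at ZT16 (92 cells) and 1652 CPM at ZT4 (109 cells), and 568 and 874 CPM of Cdkn1a. These cells were also shallower, with medians of 11264.5 and 10197 UMIs against 46642 and 47074 in cycling cells. The limit of 3 UMIs thus separates cells by depth as well, and its part in these levels was not tested.

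The day 3 myogenic-like cells were then split by Myog, a factor of the differentiation step, with cells thinned to 3000 UMIs and shallower cells left out. Of cells with at least 3 Myog UMIs, 40 of 136 were cycling at ZT16 (29.4%, 21.9 to 37.8) and 56 of 199 at ZT4 (28.1%, 22.0 to 34.9), against 140 of 285 (49.1%, 43.2 to 55.1) and 209 of 400 (52.3%, 47.2 to 57.2) of cells with no Myog UMI. The intervals of these groups do not overlap at either time. Cells with 1 or 2 Myog UMIs lay with those without, at 39 of 65 (60%, 47.1 to 72) at ZT16 and 47 of 98 (48.0%, 37.8 to 58.3) at ZT4, so that the share was lower where Myog had 3 or more UMIs and did not fall step by step. Cdkn1c had 2529 CPM in cells with Myog and 354 CPM in cells without at ZT16, and 2243 against 162 CPM at ZT4. Cdkn1a had 985 against 230 CPM at ZT16 and 1055 against 222 CPM at ZT4. Cdkn1b again ran opposite to them, by -1.40 (-2.88 to -0.31) and -1.72 (-3.19 to -0.65) on the log2 scale.

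The other members were not lower by like amounts in cells with Myog. Top2a differed by -2.03 (-2.92 to -1.32) at ZT16 and -1.75 (-2.50 to -1.13) at ZT4, Hells, a chromatin remodeller of S phase, by -1.66 (-2.67 to -0.86) and -1.50 (-2.29 to -0.84), and Mki67 by -1.62 (-2.46 to -0.94) and -1.36 (-2.08 to -0.75). Ccne2 differed by -1.50 (-3.13 to -0.34) and -1.56 (-2.92 to -0.55). Ube2c differed by only -0.06 (-0.40 to 0.26) and -0.15 (-0.44 to 0.13), although it is a counted gene like Top2a and Mki67. Among the D cyclins Ccnd1 was lower in cells with Myog, by -0.75 (-1.25 to -0.30) and -0.97 (-1.39 to -0.59), while Ccnd3 differed by 0.19 (-0.30 to 0.65) and 0.65 (0.29 to 1.01). Cells of a library are not replicates of a condition, so these intervals describe the 2 libraries.

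**Figure D2:**
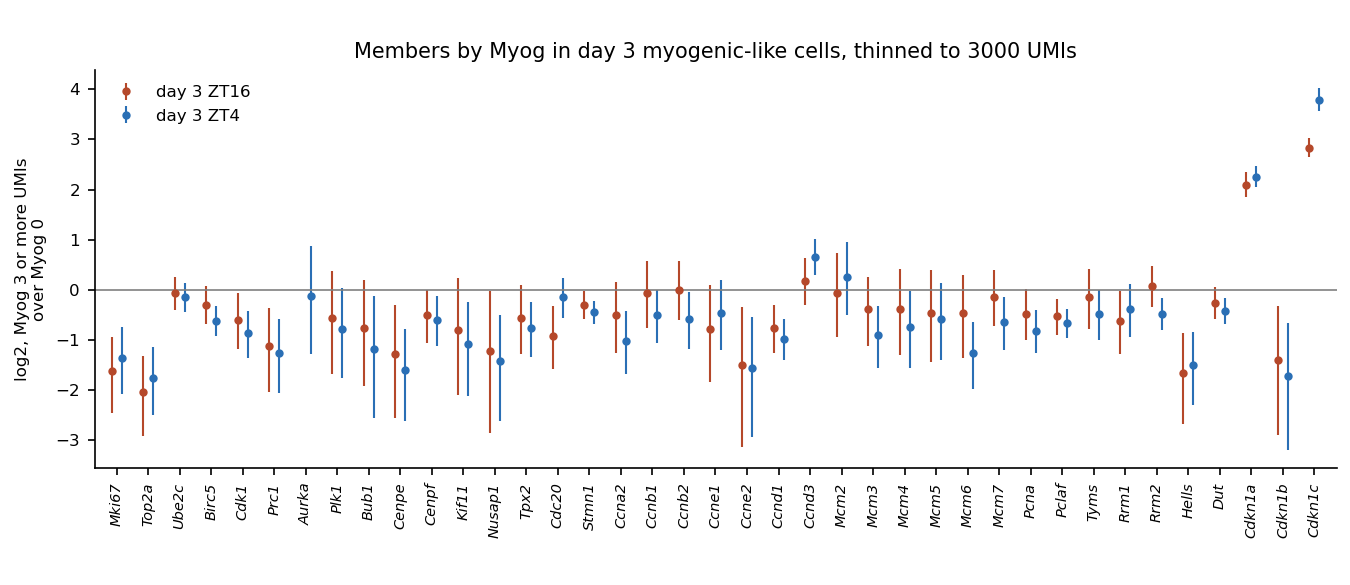
Log2 ratio of each member in day 3 myogenic-like cells with at least 3 Myog UMIs over cells with none, after thinning to 3000 UMIs, at ZT16 (red) and ZT4 (blue); bars are exact 95% intervals for counting error, cut at 6 in either direction. Cdkn1a and Cdkn1c stand above 2 at both times, most division genes stand below 0, and Ube2c stands near 0.

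In uninjured muscle the genes of the cycle were higher at ZT16 than at ZT4 in myogenic-like cells, and less so in fibro-adipogenic-like cells. Of 41 members past the UMI minimum in myogenic-like cells 34 were higher (4.02% of all genes) and 0 lower (2.20%). With cells thinned to 3000 UMIs 19 were past the same limits and higher, and the share of all genes was not computed there. The S phase genes took part: Mcm6 had 36.1 against 8.36 CPM, Hells 23.3 against 3.23 CPM and Ccne2 15.3 against 0.57 CPM. The 7 members within 2-fold were Mcm4, Dut, Ccnd1, Ccnd3 and the 3 inhibitors. Ccnd1 differed by -0.07 (-0.18 to 0.03), Ccnd3 by -0.40 (-0.49 to -0.30), Cdkn1a by 0.80 (0.59 to 1.00), Cdkn1b by 0.26 (0.11 to 0.41) and Cdkn1c by 0.24 (-0.00 to 0.48). The 61 cycling cells of 1041 (5.86%) held 3024 of the 3090 UMIs of the 6 counted genes at ZT16, and 52 of the 61 had at least 4 of the 6 genes. These cells were picked by the same 6 genes, so both values partly follow from the limit of 3 UMIs. How the UMIs of the other members spread over cells was not tested. At ZT4 there were 2 cycling cells of 897 (0.223%), and with cells thinned to 3000 UMIs the shares were 4.45% at ZT16 and 0 of 870 (at most 0.345%) at ZT4.

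Those 61 cells differed from the other 980 of their library in more than the division genes. Cdkn1a had 401 CPM in cycling cells against 44.0 CPM in the others, Ccnd1 had 442 against 198 CPM, and Myod1, the myogenic factor of activated cells, had 501 against 228 CPM. Markers of the quiescent state were lower, with Pax7 at 152 against 490 CPM, Calcr at 17.9 against 69.9 CPM and Chodl at 345 against 1223 CPM. Cdkn1c had 111 against 42.0 CPM and Cdkn1b 82.4 against 137 CPM. The cycling cells had a median of 16581 UMIs against 6654.5, and 1 of their 61 barcodes also occurred in another library. The 16 fibro-adipogenic markers summed to 1928 CPM in cycling cells against 2085 CPM in the others with 1 marker at 0 in both, the 13 mature muscle markers to 3567 against 5501 CPM with none at 0, and the 24 monocyte-macrophage markers to 90.4 against 226 CPM with 13 at 0 in cycling cells. The 11 mural markers summed to 1204 against 622 CPM, the 11 dendritic markers to 160 against 76.5 CPM with 5 at 0 in cycling cells, and the 13 endothelial markers to 119 against 62.2 CPM with 3 at 0. The 14 myogenic markers of the class itself summed to 2672 against 5298 CPM. The median doublet score was 0.0564 in cycling cells against 0.0126 in the others. The part of these differences in the result was not tested.

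In fibro-adipogenic-like cells of day 0, 20 of the 38 members past the minimum were higher at ZT16 (3.08% of all genes) and 2 lower (2.12%). After the same thinning 7 were higher, again without a share of all genes. All 6 counted genes were among the higher ones, Mki67 with 3.51 against 0.103 CPM and Top2a with 4.43 against 0.276 CPM. The levels are low, and 385 of 453 UMIs of the 6 genes at ZT16 came from 15 of 2601 cells, 129 of them from 1 cell. Cdkn1a was lower, with 41.2 CPM at ZT16 against 121 CPM at ZT4, a difference of -1.56 (-1.66 to -1.46), and Ccnb2 was lower too, with 1.76 against 3.69 CPM. Erythroid markers also differed between these libraries, with 21.2 CPM at ZT16 against 1472 CPM at ZT4 in the class, and their part in the result was not tested. In endothelial-like cells 205 of the 259 UMIs of the 6 genes at ZT16 lay in 1 cell of 3277, so that no count of members is given.

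**Figure D3:**
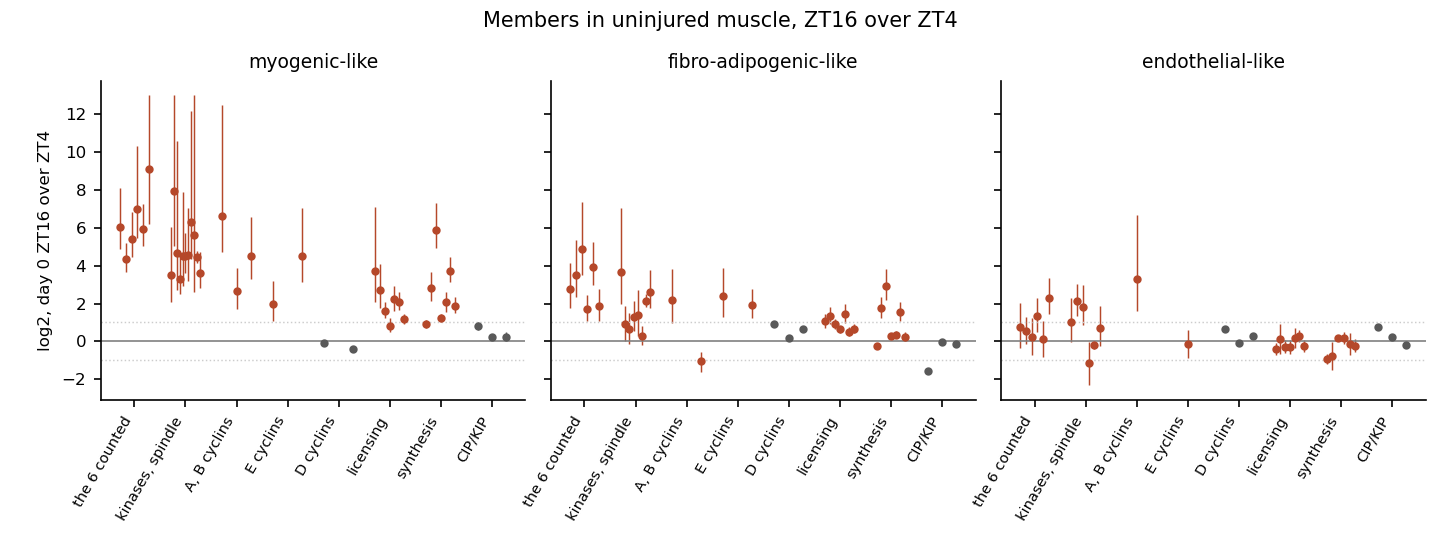
Log2 ratio of ZT16 over ZT4 on day 0 for each member with at least 30 UMIs in both libraries together, by role, in 3 classes; bars are exact 95% intervals for counting error, cut at 13, red marks the division genes and grey the D cyclins and CIP/KIP inhibitors, and dotted lines mark 2-fold. Members stand up to 9.12 in myogenic-like cells, between -1.56 and 4.87 in fibro-adipogenic-like cells, and mostly within 2-fold in endothelial-like cells.

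In fibro-adipogenic-like cells the licensing genes and E cyclins were highest on day 1 and the sum of the A and B cyclins on day 3, while the other mitotic genes were divided. The licensing and helicase genes summed to 74.8, 692 and 119 CPM on days 0, 1 and 3 at ZT16 and to 43.7, 664 and 82.8 CPM at ZT4, and the E cyclins to 3.9, 71.4 and 7.90 CPM and to 0.896, 48.6 and 6.95 CPM. The sum of the A and B cyclins instead went on, with 3.25, 34.9 and 100.7 CPM at ZT16 and 4.20, 35.2 and 119 CPM at ZT4. Among them Ccnb2, given below, rose most from day 1 to day 3. Ccnb1 had 10.8 and 19.0 CPM on these days at ZT16 and 4.86 and 26.6 CPM at ZT4. Ccna2 was near level, with 19.6 (14.9 to 25.4) and 23.9 (20.9 to 27.2) CPM at ZT16. At ZT4 it had 25.5 (18.4 to 34.5) and 27.9 (24.8 to 31.3) CPM. The 6 counted genes were somewhat higher on day 1 than on day 3, with 17.3, 303 and 249 CPM at ZT16 and 2.31, 304 and 266 CPM at ZT4, and the kinases and spindle genes were higher on day 3, with 27.0, 218 and 295 CPM and 8.61, 238 and 380 CPM. Both collection times, which share no library, showed these orders. On day 1, however, 1 cell held 150 of the 500 UMIs of the 6 counted genes at ZT4 and 81 of 895 at ZT16. On day 3, 1 cell held 108 of 2791 at ZT4 and 211 of 2368 at ZT16. At ZT4 the part held by 1 cell on day 1 is larger than the gap between days 1 and 3. The order of the 6 counted genes at ZT4 thus rests on that cell. Their sums were not taken again without those cells. The class is small on day 1, with 171 cells at ZT16 and 90 at ZT4, and its 16 markers summed to 11583 and 20115 CPM there against 89711 and 91637 CPM on day 0. Its cells also lay in different clusters by day. The cluster led by Cxcl5, Il1rl1 and Tnc, named from 3 of 16 markers, held 135 of 171 cells at ZT16 and 54 of 90 at ZT4 on day 1, the cluster led by Tnn, P4ha3 and Lrrc15 held 343 of 449 and 405 of 528 on day 3, and 3 further clusters held 957, 767 and 669 of 2601 cells and 1277, 1046 and 663 of 3205 on day 0. The part of this in the differences between days was not tested.

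By gene, Ccne2 had 2.56, 44.0 and 3.16 CPM on days 0, 1 and 3 at ZT16 and 0.654, 27.9 and 2.57 CPM at ZT4. Mcm5 had 4.69, 104.6 and 16.1 CPM at ZT16 and 1.72, 97.7 and 9.23 CPM at ZT4. Hells, whose window like those of Mcm5 and Mcm6 holds an E2F-type run, had 4.62, 149 and 17.9 CPM and 1.34, 125 and 14.6 CPM. These S phase genes were lower on day 3 than on day 1 at both times. Ccnb2 had 1.76, 4.40 and 57.8 CPM at ZT16 and 3.69, 4.86 and 64.4 CPM at ZT4, and Cdc20, the activator of the anaphase-promoting complex, had 1.11, 11.2 and 36.3 CPM and 0.586, 6.68 and 56.0 CPM. Birc5 had 1.98, 54.8 and 85.9 CPM and 0.276, 40.1 and 110.5 CPM. These 3 mitotic genes were at their highest on day 3. Of the other counted genes Mki67 and Ube2c were also highest on day 3 and Top2a, Prc1 and Cdk1 on day 1, though at ZT4 Mki67 and Cdk1 were close on these days. The cell that held 150 of the 500 UMIs on day 1 at ZT4 counts toward these values too. Top2a had 4.43, 86.0 and 23.5 CPM at ZT16 and 0.276, 119.6 and 16.3 CPM at ZT4, whereas Mki67 had 3.51, 28.4 and 56.9 CPM and 0.103, 54.0 and 60.2 CPM. Ube2c had 2.18, 27.1 and 35.5 CPM and 0.586, 21.9 and 32.8 CPM, Prc1 had 3.01, 35.9 and 21.0 CPM and 0.896, 36.4 and 16.2 CPM, and Cdk1 had 2.18, 70.8 and 26.6 CPM and 0.172, 31.6 and 29.6 CPM.

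Against day 0, 37 of 41 members past the minimum were higher on day 1 at ZT16 (13% of all genes) and 2 lower (32.9%), and 30 of 36 were higher at ZT4 (13.7%) and 2 lower (24.5%). All 7 licensing and all 7 synthesis genes were higher on day 1 at both times. On day 3, 29 of 42 were higher at ZT16 (9.92%) and 3 lower (17.8%), and 31 of 42 were higher at ZT4 (10.1%) and 3 lower (16.4%). On that day the 6 counted genes, all 11 kinases and spindle genes and all 3 A and B cyclins were higher at both times, but of the 7 licensing genes 3 were higher at ZT16 and 4 at ZT4. The other cell cycle genes listed were divided in the same way. Of the other origin and fork genes 27 of 27 past the minimum were higher on day 1 at ZT16 and 25 of 25 at ZT4, against 15 of 25 and 18 of 25 on day 3. Of the other mitotic genes 28 of 31 were higher on day 1 at ZT16 and 17 of 18 at ZT4, and on day 3 33 of 34 at both times. Days 1 and 3 share their day 0 libraries.

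**Figure D4:**
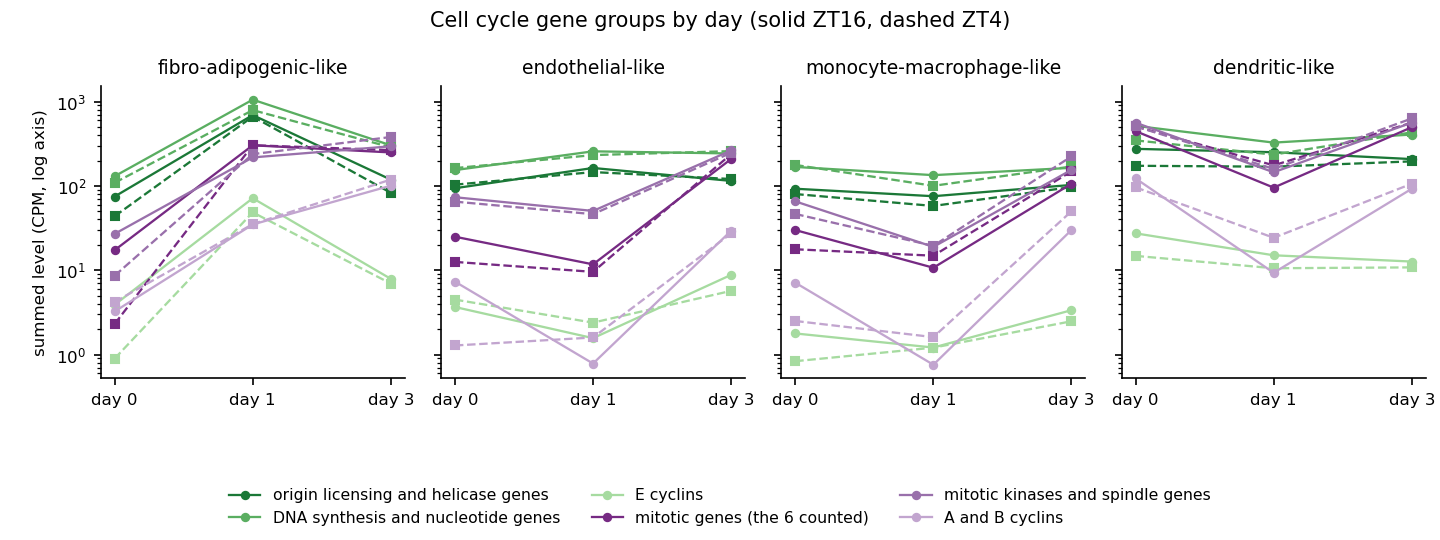
Summed CPM (log axis) of 6 groups of members on days 0, 1 and 3 in 4 classes, with ZT16 as solid lines and ZT4 as dashed lines; green lines are S phase groups and purple lines mitotic groups. In fibro-adipogenic-like cells the licensing genes peak on day 1 at 692 and 664 CPM and fall back on day 3, while the A and B cyclins go on to 100.7 and 119 CPM; in dendritic-like cells the mitotic groups dip on day 1.

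Outside the dividing groups, fibro-adipogenic-like cells had less Cdkn1c and more Ccnd1 on day 1 than on day 0. Cdkn1c had 263, 24.4 and 95.9 CPM on days 0, 1 and 3 at ZT16 and 295, 26.1 and 95.9 CPM at ZT4, and Cdkn1b had 83.2, 21.0 and 55.5 CPM and 85.2, 31.6 and 67.1 CPM. Ccnd1 had 77.5, 269.8 and 51.4 CPM at ZT16 and 41.6, 261 and 34.5 CPM at ZT4. Ccnd2 was level on day 1 and lower on day 3, with 186, 188 and 83.9 CPM at ZT16 and 164, 186 and 79.9 CPM at ZT4, and Ccnd3 had 107, 89.4 and 51.0 CPM and 68.4, 82.0 and 49.3 CPM. Cdkn1a ran 41.2, 125 and 61.5 CPM at ZT16 and 121, 89.2 and 38.3 CPM at ZT4, so that its day 1 difference was 1.60 (1.43 to 1.77) at ZT16 and -0.44 (-0.69 to -0.21) at ZT4. Among other genes of the list, Cdk4, the partner kinase of the D cyclins, had 298 against 79 CPM on day 1 over day 0 at ZT16 and 209 against 81.8 CPM at ZT4.

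At their own depth endothelial-like cells showed few cycling cells, 7 of 160 (4.38%) and 5 of 226 (2.21%) on day 3 at ZT16 and ZT4, 2 of 530 and 0 of 265 (at most 1.13%) on day 1, and 4 of 3277 and 4 of 2749 on day 0. Their day 3 medians were 2904 and 2684.5 UMIs, against 21762 and 20554 in fibro-adipogenic-like cells. Thinned to 3000 UMIs, their day 3 shares were 2.63% and 3.00%. At 1000 UMIs they were 3.70% and 1.52%, against 1.59% and 2.51% in fibro-adipogenic-like and 0.670% and 1.34% in monocyte-macrophage-like cells. In endothelial-like cells on day 3 against day 0, 18 of 33 members past the minimum were higher at ZT16 (7.85% of all genes) and 1 lower (8.52%), and 14 of 29 were higher at ZT4 (4.14%) and 1 lower (7.80%). These counts rest on very few cells, since 1 cell held 70 of 142 UMIs of the 6 counted genes at ZT16 and 1 cell held 107 of 209 at ZT4, and without that cell 6 and 4 members were higher. The inhibitors had many more UMIs. Cdkn1c had 623, 73.2 and 175 CPM on days 0, 1 and 3 at ZT16 and 709, 70.1 and 223 CPM at ZT4. Cdkn1a had 433, 776 and 383 CPM at ZT16 and 257, 889 and 474 CPM at ZT4, and Ccnd1 had 162, 265 and 156 CPM and 104, 341 and 133 CPM. In both, day 1 was the highest day. Mural-like cells had 8 of 63 cycling cells (12.7%) and 1 of 54 (1.85%) on day 3, against 0 of 758 (at most 0.396%) and 0 of 545 (at most 0.550%) on day 0. Their Ccnd2 had 283, 518 and 421 CPM at ZT16 and 313, 530 and 520 CPM at ZT4.

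Monocyte-macrophage-like cells, the largest class, had higher mitotic genes than on day 0 on day 3, and not on day 1. On day 3, 344 of 4815 cells (7.14%, 6.43 to 7.91) were cycling at ZT16 and 555 of 5127 (10.8%, 9.99 to 11.7) at ZT4, a log2 ratio of -0.60, and the thinned shares were 2.54% and 4.29%. On day 1 there were 23 of 4215 (0.546%) and 12 of 3956 (0.303%). Within day 3 the share ran from 3.87% at ZT16 and 6.40% at ZT4 in the cluster led by Cxcl10 and Ifit2, over 9.19% and 10.5% in the cluster led by Gpnmb, to 14.5% and 25.2% in the cluster led by Ccl8, Cbr2 and Folr2, genes of resident macrophages. On day 3 against day 0, 18 of 42 members past the minimum were higher at ZT16 (9.49% of all genes) and 1 lower (20.5%), and 21 of 42 were higher at ZT4 (9.20%) and 3 lower (22.0%). All 6 counted genes and all 3 A and B cyclins were higher at both times, and of the 7 licensing genes 0 were. With cell cycle genes used for clustering 8 and 11 members were higher. Birc5 had 4.75, 0.269 and 25.8 CPM on days 0, 1 and 3 at ZT16 and 1.04, 1.28 and 46.3 CPM at ZT4, and Ube2c had 2.67, 0.370 and 21.5 CPM and 0.834, 1.28 and 33.4 CPM. Mcm3 by contrast had 29.4, 24.2 and 25.9 CPM and 21.9, 18.9 and 26.1 CPM. On day 1 against day 0, 1 of 34 was higher at ZT16 (10.6%) and 13 lower (29.1%), and 4 of 33 were higher at ZT4 (10.8%) and 11 lower (30%), shares of lower members near the background. The 6 counted genes summed to 10.7 CPM on day 1 against 29.96 CPM on day 0 at ZT16 and to 14.9 against 17.7 CPM at ZT4.

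The inhibitors of this class moved in opposite directions. Cdkn1a had 161, 696 and 483 CPM on days 0, 1 and 3 at ZT16 and 243, 662 and 372 CPM at ZT4. Cdkn1c had 27.9, 1.14 and 5.26 CPM at ZT16 and 35.9, 1.42 and 3.85 CPM at ZT4, a day 1 difference of -4.60 (-5.08 to -4.14) and -4.65 (-5.11 to -4.23). Cdkn1b had 71.5, 37.4 and 64.1 CPM and 90.9, 65.3 and 63.5 CPM. Ccnd1 was lower on day 1, with 108, 55.1 and 74.9 CPM at ZT16 and 116, 35.0 and 55.9 CPM at ZT4, the reverse of its course in fibro-adipogenic-like and endothelial-like cells, though the difference between the classes was not tested. Which clusters made up the class also changed, since the clusters whose leading genes include Arg1 and Vcan held 2888 and 1160 of its 4215 cells at ZT16 and 2001 and 1832 of its 3956 at ZT4 on day 1, and the cluster with Timd4 and Lyve1 held 415 of 449 and 663 of 708 on day 0. Their part in these differences was not tested.

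In dendritic-like cells mitotic genes were lower on day 1 than on day 0. The 6 counted genes summed to 446, 95.4 and 497 CPM on days 0, 1 and 3 at ZT16 and to 508, 175 and 562 CPM at ZT4. Ube2c had 142, 4.15 and 120 CPM and 136, 29.96 and 143 CPM, and Stmn1 had 350, 106 and 276 CPM and 298, 79 and 324 CPM. On day 1 against day 0, 1 of 35 members past the minimum was higher at ZT16 (8.11% of all genes) and 16 lower (8.86%), and 2 of 34 were higher at ZT4 (10.7%) and 13 lower (8.53%). None of the licensing genes past the minimum was among those lower. The count at ZT4 was 1 lower member with doublet-score barcodes kept, with cell cycle genes used for clustering and at a finer clustering, and at ZT16 6 were lower with doublet-score barcodes kept. The class held only 65 and 54 cells on day 0, where 1 cell gave 113 of 375 and 90 of 343 UMIs of the 6 genes. Its makeup also differed, since the cluster with Xcr1 among its leading genes held 50 of 295 cells at ZT16 and 51 of 326 at ZT4 on day 1, against 30 of 65 and 35 of 54 on day 0, and the part of this in the result was not tested. On day 3 the Xcr1 cluster had the highest cycling share of the class, 40.0% (58 of 145) at ZT16 and 36.8% (93 of 253) at ZT4. Ccnd2 had 50, 229 and 280 CPM on days 0, 1 and 3 at ZT16 and 51.8, 209 and 111 CPM at ZT4, so that day 3 differed between the times by 1.34 (1.25 to 1.43), and Ccnd1 had 489 CPM at ZT16 against 271 CPM at ZT4 on day 3.

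Across classes the CIP/KIP inhibitors and D cyclins had class-specific levels. In uninjured muscle Cdkn1c was highest in endothelial-like cells, at 623 CPM (ZT16) and 709 CPM (ZT4), followed by tenocyte-like cells at 541 and 324 CPM (138 and 88 cells). Of the classes drawn the next were fibro-adipogenic-like cells at 263 and 295 CPM, mural-like cells at 156 and 90.8 CPM, myogenic-like cells at 50.9 and 43.1 CPM, monocyte-macrophage-like cells at 27.9 and 35.9 CPM and dendritic-like cells at 4.76 and 4.44 CPM. On day 3 the order of these was led by myogenic-like cells, at 886 and 786 CPM, with endothelial-like cells at 175 and 223 CPM. Of the 6 classes drawn, Ccnd2 was highest in mural-like cells in every library and lowest in myogenic-like cells on days 0 and 3. T cell-like cells, which are not drawn, had more than mural-like cells on day 0, at 471 and 377 CPM, and on day 3, at 593 and 692 CPM. On day 1 at ZT16 they had less, at 287 CPM. NK cell-like cells, also not drawn, had 584 against 421 CPM in mural-like cells on day 3 at ZT16, and 516 against 520 CPM at ZT4. Glial-like cells had 227 against 283 CPM in mural-like cells on day 0 at ZT16, and 346 against 313 CPM at ZT4. Of the classes drawn, Cdkn1a was highest in endothelial-like cells on day 1 (776 and 889 CPM) and in myogenic-like cells on day 3 (555 and 553 CPM). In a class, more RNA per cell and more cells carrying a gene cannot be told apart from these sums.

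**Figure D5:**
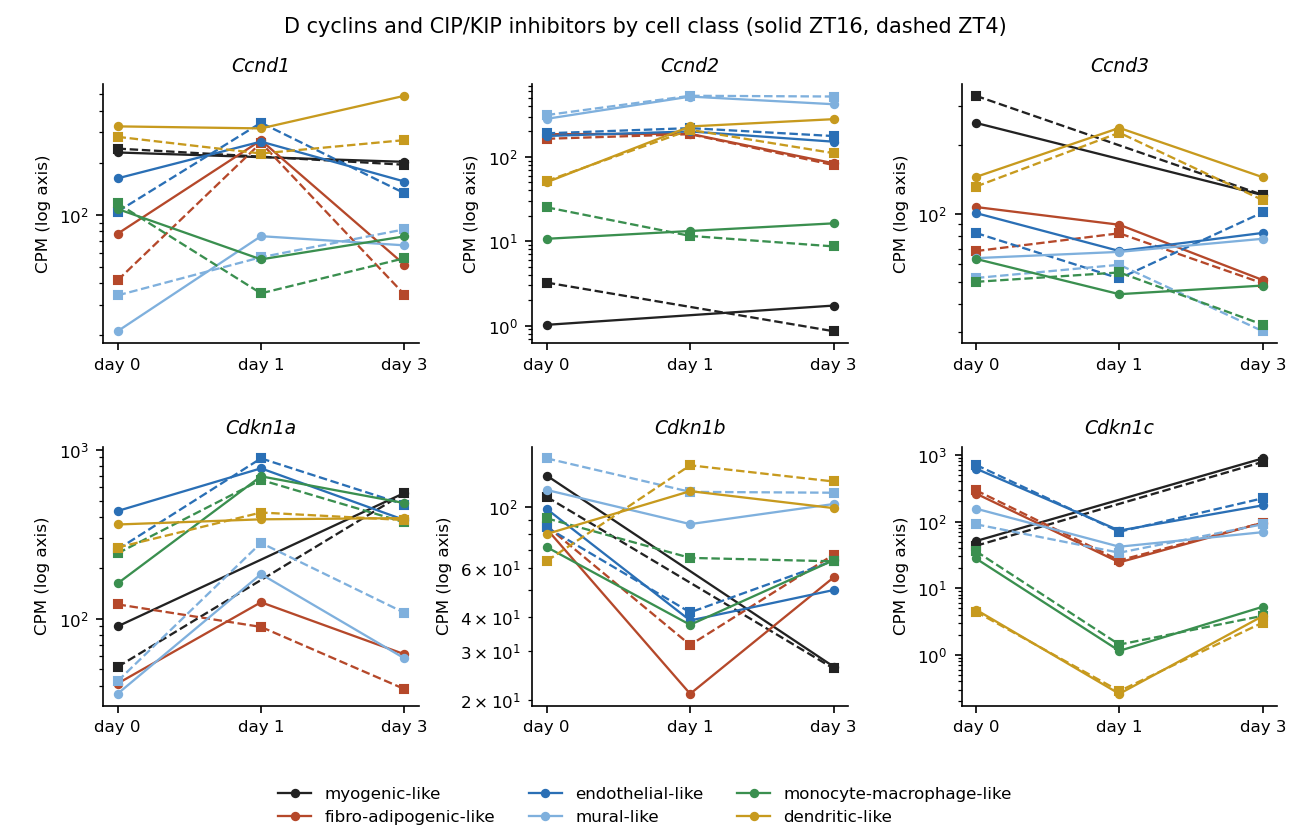
CPM (log axis) of the D cyclins and CIP/KIP inhibitors on days 0, 1 and 3 in 6 classes, with ZT16 as solid lines and ZT4 as dashed lines; classes under 50 cells are not drawn, so myogenic-like lines join day 0 to day 3. Cdkn1c is lower after injury in endothelial-like and fibro-adipogenic-like cells and higher in myogenic-like cells, at 886 and 786 CPM on day 3, and of the 6 classes Ccnd2 is highest in mural-like cells.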

How the data were processed

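The values used are the UMI counts the authors deposited, 1 matrix per library, holding whole-number counts per gene and cell. Cell Ranger 1.0.0 and the mm10 genome are named per the submitters' processing notes, while the matrices name Cell Ranger 6.1.2 per the file headers. The annotation release was not given in the labels or headers used here. The members and lists were chosen with earlier results of these data known. Cells with at least 200 genes, 500 UMIs and at most 10% mitochondrial UMIs were kept, and the highest doublet scores removed at 0.8% per 1000 barcodes. This removed 534 to 1229 barcodes per library. Clusters came from scanpy 1.11.5 and leidenalg 0.10.2 (2000 variable genes, 30 components, 15 neighbours, resolution 1.0), with all libraries together and no batch correction. A class name needed 3 or more markers, each found in 10% or more of a cluster's cells and 2-fold or more above the remaining cells. UMIs were summed per class and library. Log2 ratios add 0.5 UMI to each count, with exact conditional binomial intervals, and shares have exact Clopper-Pearson intervals. These calculations were tested on simulated data. A group with 0 UMIs was set at a floor of 3 UMIs. For a share of 0 cells, the value given as at most is 3 cells over the cells counted. It lies below the exact upper limit, which for 0 of 2070 mature muscle-like barcodes was 0.178% and not 0.145%. Classes under 50 cells were not compared. Named in full were the 6 counted genes, D cyclins, CIP/KIP inhibitors and, per other role, the largest and smallest day 3 difference in myogenic-like cells at ZT4. Genes named beyond these were chosen after their values were seen, apart from the non-members (at most 3 per comparison, by UMIs). Alternatives changed the filters, depth, clustering, UMI limits, fold limit and scaling, and 1 was added after the data were seen.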

Additional observations from a re-analysis of the deposited data

Results flagged for a closer look

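Ccnb2 (cyclin B2) moved in opposite directions between classes on day 0. On the log2 scale it differed by 4.50 at ZT16 over ZT4 in myogenic-like cells and by -1.06 in fibro-adipogenic-like cells. Cdkn1a likewise differed by 0.80 in myogenic-like and 0.76 in endothelial-like cells, but by -1.56 in fibro-adipogenic-like and -0.59 in monocyte-macrophage-like cells. They were picked out because the signs are opposite with at least 100 UMIs in each class, a 2-fold difference in 1 class and a 1.5-fold difference in another. With 1 library per group, the difference between classes was not tested. A cluster that took no class name and whose leading genes were Retnla, Lyz1 and Ear2 held cycling cells on day 0, 24 of 359 (6.69%) at ZT16 and 11 of 484 (2.27%) at ZT4. It lies outside every class compared here.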

How the results depend on the processing

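No paired analysis was possible because each group is 1 library, and for the same reason no replicate could be left out. No ratio of cycling share between collection times that was past 2-fold changed direction under the alternatives run for the shares. Members were counted in a set direction in each comparison, so a change of direction of a member was not looked for. The alternative that leaves out a single cell was added after the data were seen. Of the cycling shares themselves, 229 values stayed within their counting interval and 75 moved, 18 of 38 at 3000 UMIs, 25 at 1000 UMIs and 12 with each of the limits of 2 and 5 UMIs of the 6 genes. Of the ratios of cycling share between collection times, 53 values stayed within their counting interval and 3 moved, and of the counts of members 149 stayed within 1.5 times and 55 moved. Calling at 1.5-fold and averaging CPM over cells moved no count. The share of all genes was not computed under the alternatives, so their counts stand without a background. Depth limited the counts most, since thinning leaves fewer UMIs and fewer members past the minimum. With cells thinned to 3000 UMIs, 19 members were higher at ZT16 on day 0 in myogenic-like and 7 in fibro-adipogenic-like cells. Against day 0 (ZT16, then ZT4), day 1 of fibro-adipogenic-like cells then had 23 and 14 higher, their day 3 had 19 and 16, and day 3 of endothelial-like cells had 2 and 1, while 7 and 6 were lower on day 1 in monocyte-macrophage-like and 4 and 3 in dendritic-like cells. At 1000 UMIs these counts were 7 and 1, 11 and 9, 6 and 8, 5 and 2, 4 and 4, and 0 and 1, with 9 higher in monocyte-macrophage-like cells on day 3 at ZT16. The day 3 log2 ratios of cycling share were then 0.33 in myogenic-like, -0.62 in fibro-adipogenic-like and -0.99 in monocyte-macrophage-like cells, against -0.05, -0.03 and -0.60. With at least 100 UMIs asked, 9 were higher on day 0 and 17 on day 1 at ZT4 in fibro-adipogenic-like cells, 4 and 2 in endothelial-like cells on day 3, and 4 and 7 lower in monocyte-macrophage-like and 5 and 4 in dendritic-like cells on day 1. With no minimum, 26 were higher in endothelial-like cells at ZT4 and 21 lower in monocyte-macrophage-like cells on day 1 at ZT16. With doublet-score barcodes kept, 26 and 18 were lower on day 1 and 9 higher on day 3 at ZT16 in monocyte-macrophage-like cells, and 6 and 1 lower in dendritic-like cells. With cell cycle genes used for clustering, 8 and 11 were higher on day 3 in monocyte-macrophage-like cells, 9 in endothelial-like cells at ZT16, and 1 lower in dendritic-like cells at ZT4. At resolution 2.0, 23 were lower on day 1 and 11 higher on day 3 in monocyte-macrophage-like cells at ZT16, and 1 lower in dendritic-like cells at ZT4. Without the cell with most UMIs of the 6 genes, 6 and 4 were higher in endothelial-like cells. The 1 member higher at ZT16 on day 3 in myogenic-like cells became 0 with thinning, at 100 UMIs, with doublets kept, at 5% mitochondrial UMIs and with centring on the median gene. Levels of D cyclins and inhibitors without cycling cells stayed within their counting interval in 187 cases and moved in 41. The cause of these moves was not tested, apart from fewer UMIs.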

Other observations

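Wee1, the kinase that holds Cdk1 inactive before mitosis, was among the other cell cycle genes past 2-fold on day 0 in several classes. On day 0 it had 55.7 CPM at ZT16 against 16.7 CPM at ZT4 in myogenic-like cells, 24.4 against 6.51 CPM in fibro-adipogenic-like cells and 28 against 8.97 CPM in endothelial-like cells. It had 15.4 against 0.473 CPM in mural-like cells (48 UMIs against 1) and 16.3 against 1.67 CPM in monocyte-macrophage-like cells. Dendritic-like cells had 17.9 against 16.3 CPM on few UMIs (15 against 11). The counting intervals of ZT16 and ZT4 were apart in the first 5 of these classes, of which mural-like cells held no cycling cell. On day 1 Wee1 had 27.8 against 27.9 CPM in fibro-adipogenic-like and 19.2 against 22.3 CPM in endothelial-like cells, and 9.31 against 4.69 CPM in monocyte-macrophage-like cells. On day 3 it had 17.9 against 12.6 CPM in myogenic-like cells and 10.2 against 6.47 CPM in fibro-adipogenic-like cells, and 30.8 against 7.97 CPM in endothelial-like cells (21 UMIs against 7), again with intervals apart. Mural-like cells had 23.1 against 2.83 CPM on day 1 (16 UMIs against 1) and 24.9 against 4.33 CPM on day 3 (9 against 1), with intervals that overlap. Monocyte-macrophage-like cells had 6.05 against 5.32 CPM on day 3, and dendritic-like cells had 8.56 against 5.71 CPM on day 1 and 7.52 against 4.86 CPM on day 3, also with overlapping intervals.

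Btg2, an anti-proliferative gene, was lower after injury in several classes. In myogenic-like cells it had 73.1 CPM on day 3 against 2086 CPM on day 0 at ZT16 and 52.1 against 2249 CPM at ZT4, and Btg1 had 118 against 827 CPM and 103 against 795 CPM. In endothelial-like cells Btg2 had 508 CPM on day 1 against 1695 CPM on day 0 at ZT16 and 426 against 1443 CPM at ZT4.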
